A study of Rattus norvegicus with 47 samples.

Results

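The silica effect in rat lung, meaning the log2 ratio of expression in silica-exposed to air-exposed animals, was compared between 6 months and 1 day after exposure ended. The comparison used all 23 lung libraries of the 47 samples in the series, joined gene by gene from the deposited tables of each time, and the blood samples were not used. The rats were healthy male Fischer 344 animals of 250 to 300 g at entry, with no age given, that breathed either filtered air or the crystalline silica dust Min-U-Sil 5 at 15 mg/m3 in whole-body chambers for 6 hours a day over 5 days. Lungs were taken 1 day afterwards from 6 air and 6 silica rats, and 6 months afterwards from 5 air and 6 silica rats. The animals of the later time were therefore also older, and age, time since exposure and deposited table cannot be told apart. For that reason each silica effect was taken against the air group of its own time, and the difference between times is the 6-month effect minus the 1-day effect. No rat was sampled at both times in lung, so a gene that persisted did so between groups of animals and not within an animal.

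Inhaled silica crystals settle in the alveoli, where resident alveolar macrophages engulf them into phagosomes and lysosomes that they cannot clear. Crystals that rupture lysosomes are known to activate the inflammasome, which matures interleukin-1, and epithelial cells and macrophages then release chemokines that bring in neutrophils and monocytes. Particles stay in the lung for long after exposure, and silica lung disease is known for lipid-laden macrophages, surfactant build-up and fibrosis. This is background and was not measured here.

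Of 30045 gene models in the tables, 15786 had enough counts to be tested. At 1 day silica changed 2464 of them (15.6%), 1341 higher (8.49% of the genes tested) and 1123 lower (7.11%). At 6 months it changed 3004 (19%), 1676 higher (10.6%) and 1328 lower (8.41%). Far fewer genes, 217 (1.4%), had an effect that differed between the times, and 177 of them (1.12%) had a higher log2 effect at 6 months and 40 (0.253%) a lower one. All calls are edgeR quasi-likelihood tests at a Benjamini-Hochberg adjusted p below 0.05, and percentages are of the 15786 genes. At an unadjusted p below 0.05 the difference counted 2138 genes. A test against a 1.5-fold change, in place of any change, called 5 differences. The standard error of the difference had a median of 0.106 on the log2 scale, and the smallest difference called was 0.18, so small changes between the times could go uncalled.

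Genes called at either time ran mostly in the same direction at the other. Of the 2464 genes called at 1 day, 89.5% had the same sign at 6 months, 51% were called at both times and 4.22% had a called difference. The median size of their effect was 0.265 at 1 day, where they were selected, and 0.195 at 6 months on the log2 scale. Seen from the other side, the 3004 genes called at 6 months had a median size of 0.279 there and 0.15 at 1 day, so each set was smaller at the time that did not select it. Of the 1257 genes called at both times, 97.5% had the same sign. Over those genes the 1-day and 6-month effects had a Pearson correlation of 0.88, given as a description because genes are not independent replicates and these were chosen by both tests. Over all 15786 genes tested the correlation was 0.368 and 66.8% had the same sign. The genes that were at least 2-fold changed and called at 1 day numbered 238, and 167 of them were also called at 6 months.

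Each gene was placed in a pattern by its tests. Persisting genes were called at both times in the same direction without a called difference, and 753 were persistently higher (4.77%) and 456 persistently lower (2.89%). Fading genes were called at 1 day with a called difference against that effect, and comprised 26 raised genes (0.165%) and 43 lowered genes (0.272%). Growing genes were called at 6 months with a called difference in the direction of that effect, and comprised 104 higher (0.659%) and 12 lower genes (0.076%). Reversing genes were called in opposite directions, and 29 went from lower to higher (0.184%) while 2 went from higher to lower (0.0127%). A further 556 raised and 595 lowered genes were called only at 1 day, and 778 raised and 857 lowered genes only at 6 months, with no called difference, and for those the data do not say whether the effect changed. The remaining gene among the 217 was called for the difference alone. The class percentages are shares of all genes tested and come from the same tests that define the classes.

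**Figure D1:**
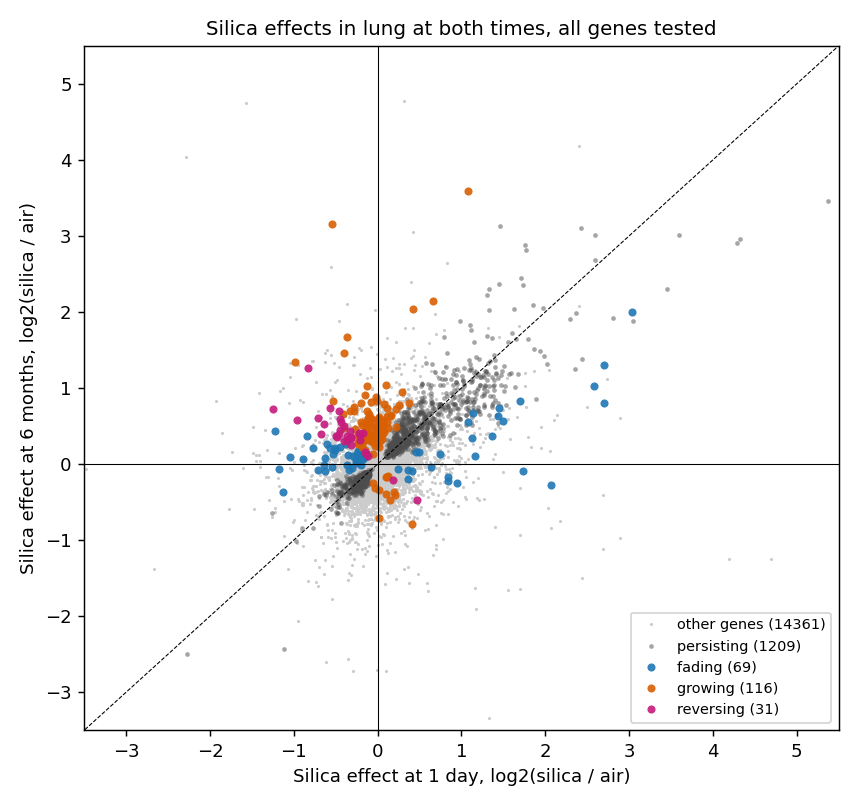
Each point is 1 of the genes tested, with log2(silica / air) at 1 day on the horizontal axis and at 6 months on the vertical axis, coloured by pattern, and the dashed line marks equal effects. Persisting genes (753 higher and 456 lower) lie along the line, reversing genes (31) lie mostly at the upper left, lower at 1 day and higher at 6 months, and 10 genes fall outside the axes.

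Markers of lung were abundant, since surfactant and alveolar type 2 genes summed to between 25310 and 43170 normalised counts (CPM, scaled to library size) in every library. Library totals ran from 12050000 to 25880000 counts. In bulk lung, fewer cells of a type and less RNA per cell cannot be told apart, and this holds for every value below. Globin RNA, a sign of blood in the tissue, took a mean of 0.533% of counts in air and 0.389% in silica at 1 day (two-sided exact permutation p = 0.00433, adjusted over 4 tests 0.0173), and 0.63% against 0.474% at 6 months (exact permutation p = 0.0238, adjusted 0.0347). Library totals were also higher in silica at 6 months, at a mean of 16420000 against 12640000 counts (exact permutation p = 0.026, adjusted 0.0347), and not detectably different at 1 day (exact permutation p = 0.654). The part of these shifts in the results was not tested. Summed neutrophil markers ran from 290.4 to 411 CPM in air and 501 to 900.3 in silica at 1 day. At 6 months they ran from 381 to 534 in air and 683 to 887 in silica, so these sums did not overlap at either time. A sum follows its most abundant members. Of the 17 neutrophil genes tested, 11 were higher and 1 lower at 1 day, and 8 were higher and none lower at 6 months. Of all genes tested, 8.49% were higher at 1 day and 10.6% at 6 months. The median effect of the 17 went from 0.64 to 0.26, and 12 of their differences were negative, with 1 called lower and 1 higher. Over all 15786 genes tested, 8124 differences were negative and 7662 positive, which stands beside each count of signs below. Single libraries stood apart across many of the genes described. Among the 104 genes that grew upward, 1-day air animal 38 was the highest of its group in 82 and 6-month silica animal 58 in 78. Among the 29 that reversed upward, animal 38 was highest in 22 and animal 58 in 21. The 1-day silica animal 45 was highest of its group in 60 of the 104 and 23 of the 29, while 6-month air animal 53 was lowest in 55 and 16 and 6-month silica animal 64 lowest in 58 and 16. These animals also stood apart beyond those patterns. Among the 753 persistently higher genes, animal 38 was highest of its group in 361, animal 58 in 482 and animal 45 in 160. In the same 753, animal 53 was lowest in 325 and animal 64 in 281. Called differences numbered 254 without animal 45, 159 without animal 53 and 250 without animal 64. With animals 38 and 58 both left out, a choice made after these values were seen, the called differences numbered 126. Of these, 117 were among the 217, and there were 45 fading, 61 growing and 20 reversing genes.

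The genes that faded from a raised level included chemokines and cytokines of acute inflammation. Cxcl1 and Cxcl2 encode chemokines that attract neutrophils through the receptor Cxcr2, and Il1b encodes interleukin-1 beta. Cxcl1 at 1 day measured 6.67 to 18.7 CPM (median 14.2) in air and 55.9 to 139 CPM (median 72.2) in silica. Cxcl1 at 6 months measured 20.6, 21.4, 24.3, 26.5 and 29.5 CPM in the air libraries and 43.3 to 57 CPM (median 49.6) in silica. Every silica library lay above every air library at both times, and silica animal 44 stood highest at 1 day. The Cxcl1 effect was log2 2.58 ± 0.20 at 1 day and 1.03 ± 0.21 at 6 months, a difference of -1.55 ± 0.29, adjusted p = 0.00621. Cxcl2 at 1 day measured 1.29 to 2.95 CPM (median 1.73) in air and 8.55 to 17.1 CPM (median 12) in silica. Cxcl2 at 6 months measured 2.01, 2.29, 2.66, 3.52 and 4.09 CPM in the air libraries and 3.41 to 6.76 CPM (median 4.91) in silica. The groups were apart at 1 day and overlapped at 6 months, and the difference was -1.90 ± 0.33, adjusted p = 0.00388. Il1b at 1 day measured 18.1 to 33 CPM (median 22.9) in air and 37 to 72 CPM (median 50.4) in silica. Il1b at 6 months measured 24.8, 29.5, 35, 36.4 and 40.3 CPM in the air libraries and 29.7 to 38.9 CPM (median 36.8) in silica. Il1b was thus higher in every silica library at 1 day and within the range of the air libraries at 6 months, with a difference of -1.05 ± 0.23, adjusted p = 0.0201.

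Cxcl6, another neutrophil attractant, had the highest 1-day effect of the 28 chemokine ligand genes tested and was called at both times. Cxcl6 at 1 day measured 2.12 to 6.69 CPM (median 4.02) in air and 52.4 to 120 CPM (median 80.6) in silica. Cxcl6 at 6 months measured 3.42, 6.94, 7.27, 7.31 and 7.87 CPM in the air libraries and 37.8 to 74.5 CPM (median 45.3) in silica. No silica value overlapped an air value at either time. Its effect was log2 4.29 ± 0.25 at 1 day and 2.90 ± 0.26 at 6 months, and the difference of -1.4 ± 0.38, adjusted p = 0.0687 did not pass the threshold. The interval of that difference ran from -2.17 to -0.61 (95%). It passed with DESeq2 (-1.42, adjusted p = 0.0179) and when any of 5 libraries was left out, 1-day air animal 38, 1-day silica animals 45 and 46, 6-month air animal 53 and 6-month silica animal 58 (-1.47 to -1.58, adjusted p 0.032 to 0.0496). Air animal 53 had the lowest Cxcl6 at 6 months, at 3.42 CPM.

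The promoters of these 3 neighbouring chemokine genes are shown because all 3 genes rose at 1 day and because Cxcl1 and Cxcl2 faded. The sequences cover 250 bases before to 50 bases after the start site and come from RefSeq on build GRCr8, whereas the expression tables were made on Rnor_6.0. Each is written 5′ to 3′ on the gene's strand, and capitals mark letters that match GGNNTTTCC on either strand, a pattern like the binding sequence of NF-kB, the transcription factor of interleukin-1 signalling.
Cxcl1 promoter, chr14:17479272-17479571, minus strand: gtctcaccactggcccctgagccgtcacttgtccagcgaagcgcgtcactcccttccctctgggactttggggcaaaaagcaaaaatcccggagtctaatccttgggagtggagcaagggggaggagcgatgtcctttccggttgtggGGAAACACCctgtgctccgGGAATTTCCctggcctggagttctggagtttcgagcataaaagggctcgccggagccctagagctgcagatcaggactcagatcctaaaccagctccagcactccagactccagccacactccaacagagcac
Cxcl2 promoter, chr14:17467206-17467505, minus strand: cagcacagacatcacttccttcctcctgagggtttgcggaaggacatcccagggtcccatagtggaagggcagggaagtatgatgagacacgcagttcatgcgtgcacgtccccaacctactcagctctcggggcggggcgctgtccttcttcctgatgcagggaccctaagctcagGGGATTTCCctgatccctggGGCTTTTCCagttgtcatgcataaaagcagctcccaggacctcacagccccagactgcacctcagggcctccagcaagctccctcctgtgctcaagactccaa
Cxcl6 promoter, chr14:17596368-17596667, minus strand: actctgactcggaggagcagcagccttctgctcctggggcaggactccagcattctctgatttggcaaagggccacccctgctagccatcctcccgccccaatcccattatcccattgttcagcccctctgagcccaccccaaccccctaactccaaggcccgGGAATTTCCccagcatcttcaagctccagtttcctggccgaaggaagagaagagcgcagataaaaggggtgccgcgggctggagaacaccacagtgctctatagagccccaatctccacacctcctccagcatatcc
Cxcl1 and Cxcl2 each held 2 matches and Cxcl6 held 1. The pattern occurred in 6.75% of the 10244 tested genes that had a promoter in the table, in 4 of 24 fading raised genes (16.7%) and in 34 of 552 persisting raised genes (6.16%). The 4 include Cxcl1 and Cxcl2, shown above. Over the gene lists scanned, shares ran from 0 of 18 NRF2 and oxidative stress genes to 3 of 7 neutrophil chemokine and receptor genes (42.9%). Lipid-associated macrophage and lysosome genes had 3 of 19 (15.8%). A match is a description of letters, and binding was not measured.

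Over the list of neutrophil chemokines and receptors, 8 genes were tested. The members of this and the other lists were chosen with earlier results of these data known, so their counts are a description. At 1 day 7 were higher and 1 lower, at 6 months 5 were higher and none lower, and the difference was called lower for 2 and higher for 1. Of all genes tested, 8.49% were higher at 1 day, 10.6% were higher at 6 months, and 0.253% had a lower and 1.12% a higher difference. The list's median effect went from 1.05 to 0.60, beside -0.01 at both times over all genes. The receptor Cxcr1 was the member with the higher difference, its log2 effects being -1.04 and 0.09 (difference 1.13 ± 0.24, adjusted p = 0.014). Cxcl3 stayed close at log2 0.56 and 0.55. The neutrophil receptor genes Cxcr2 (log2 1.14 and 0.26) and Csf3r (log2 0.97 and 0.04) were called at 1 day and not at 6 months, with differences that did not pass (adjusted p = 0.11 and 0.0678). Leaving out silica animal 45 of 1 day took the number of lowered differences from 2 to 4. In the list of interleukin-1 and NF-kB response genes, 12 of 27 were higher and 1 lower at 1 day, 7 were higher and 2 lower at 6 months, and the difference was negative for 24 of 27 but called for 2: Il1b, lower, and Il18, higher (1.4% of all genes tested had a called difference). Over all 15786 genes tested, 8124 differences were negative. The endothelial adhesion genes Sele (log2 1.4 and 0.07) and Selp (log2 0.96 and 0.03), which let leukocytes roll on vessels, were called at 1 day only, with adjusted p = 0.0766 and 0.0951 for the difference.

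Lcn2, which encodes lipocalin 2, an iron-scavenging protein of neutrophils and injured epithelium, faded in part. Lcn2 at 1 day measured 3.38 to 6.6 CPM (median 5.91) in air and 28.8 to 57 CPM (median 47.8) in silica. Lcn2 at 6 months measured 6.5, 9.3, 10.4, 11 and 12.8 CPM in the air libraries and 37.7 to 45 CPM (median 39) in silica. All silica values lay above all air values at both times. The effect was log2 3.04 ± 0.17 at 1 day and 2.0 ± 0.17 at 6 months, and the difference was -1.03 ± 0.24, adjusted p = 0.0241. That call was lost without air animal 49 of 6 months (difference -0.93, adjusted p = 0.0676). The acute-phase list as a whole had 10 of 15 genes higher at 1 day, 12 higher at 6 months and none lower at either time (beside 8.49% and 10.6% of all genes higher), with 2 lowered differences, Lcn2 and Cp (ceruloplasmin, -0.34 with adjusted p = 0.026, lost at 0.0558 without air animal 53 of 6 months, difference -0.29). Cx3cl1, which encodes the membrane chemokine fractalkine, also remained higher at 6 months (log2 1.08 and 0.55, difference -0.53 ± 0.11, adjusted p = 0.0113). Zc3h12a, whose product degrades inflammatory messenger RNAs, had log2 1.4 and 0.74, and Ltb, which encodes lymphotoxin beta, had log2 1.14 and 0.67. In all, 12 of the 26 fading raised genes were still called higher at 6 months.

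Clock genes formed a separate group among those that faded. Nr1d2, Per3 and Dbp belong to the circadian oscillator or its direct output. Nr1d2 at 1 day measured 34.3 to 63.3 CPM (median 45.9) in air and 71.6 to 107 CPM (median 81.8) in silica. Nr1d2 at 6 months measured 34.4, 36.6, 40.2, 45.7 and 48.9 CPM in the air libraries and 28.5 to 46.5 CPM (median 32.8) in silica. The groups did not overlap at 1 day and overlapped at 6 months. The Nr1d2 effect was log2 0.84 ± 0.13 at 1 day and -0.22 ± 0.14 at 6 months, with a difference of -1.06 ± 0.20, adjusted p = 0.0061. Per3 at 1 day measured 8.23 to 14.2 CPM (median 10.6) in air and 16.6 to 26.1 CPM (median 19.3) in silica. Per3 at 6 months measured 9.87, 10.8, 11.6, 11.9 and 13.6 CPM in the air libraries and 7.31 to 12.2 CPM (median 10.9) in silica. Per3 was likewise apart from air at 1 day and overlapping at 6 months, with a difference of -1.01 ± 0.20, adjusted p = 0.00781, and silica animal 48 stood highest at 1 day. Dbp had log2 0.95 and -0.25 (difference -1.20 ± 0.24, adjusted p = 0.0117). The clock list was also chosen with earlier results of these data known. Of 17 clock genes tested, 5 were higher and 4 lower at 1 day, 2 were higher and 4 lower at 6 months, and the difference was lower for 3 and higher for 1. Over all genes tested, 8.49% were higher and 7.11% lower at 1 day, 10.6% higher and 8.41% lower at 6 months, and 0.253% had a lower difference, so the 2 genes higher at 6 months were near the share over all genes. Nr1d1, the partner of Nr1d2, had log2 1.70 and -0.32 with a difference of -2.02 ± 0.52, adjusted p = 0.0512. Without 6-month silica animal 64, 2 clock genes had a higher difference. The lowered members at 1 day included Arntl, the oscillator's activator (log2 -0.48 and -0.21), and Cry1, a repressor (log2 -0.71 and -0.11), whose differences did not pass. The hour at which each lung was taken is not given in the labels, so the part of collection time in these values was not tested. The E-box CACGTG, the sequence bound by the clock activators, was in the promoter window of 5 of 14 clock genes with a promoter in the table (35.7%) and of 9.43% of tested genes. It was in 0 of the 24 fading raised genes that had a promoter in the table, so it did not mark the genes that faded.

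Genes lowered at 1 day whose effect faded by 6 months included genes of surface receptors and lipid handling. Of the 43 such genes, 10 had the same sign at both times, and their median effect went from log2 -0.34 to 0.10. Clec7a encodes dectin-1, a receptor of macrophages for fungal glucans. Clec7a at 1 day measured 172 to 227 CPM (median 195) in air and 103 to 157 CPM (median 128) in silica. Clec7a at 6 months measured 167, 168, 184, 185 and 195 CPM in the air libraries and 187 to 262 CPM (median 214) in silica. All silica values were below all air values at 1 day and the groups overlapped at 6 months, and the difference was 0.86 ± 0.13, adjusted p = 0.00164. Tnfrsf8 encodes the receptor CD30. Tnfrsf8 at 1 day measured 10.5 to 17.2 CPM (median 13.7) in air and 3.95 to 8.07 CPM (median 5.38) in silica. Tnfrsf8 at 6 months measured 7.9, 9.06, 11.3, 12.1 and 13.7 CPM in the air libraries and 12.1 to 21.6 CPM (median 13.8) in silica. Silica was below air in every library at 1 day, with overlap at 6 months and silica animal 58 standing highest there, and the difference was 1.66 ± 0.26, adjusted p = 0.00172. Fcgrt encodes the receptor that recycles immunoglobulin G. Fcgrt at 1 day measured 119 to 137 CPM (median 122) in air and 80 to 94.7 CPM (median 83) in silica. Fcgrt at 6 months measured 115, 116, 118, 118 and 121 CPM in the air libraries and 100 to 126 CPM (median 115) in silica. Fcgrt was apart from air at 1 day and overlapping at 6 months. The Fcgrt effect was log2 -0.54 ± 0.05 at 1 day and -0.04 ± 0.05 at 6 months, a difference of 0.50 ± 0.07, adjusted p = 0.000689.

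Of the 43 genes in this lowered and fading class, 1 was still called lower at 6 months, Alox15. Alox15 encodes a lipoxygenase that oxidises fatty acids (log2 -1.12 and -0.37, difference 0.75 ± 0.14, adjusted p = 0.00621). Abca1, the cholesterol exporter, had log2 -0.53 and 0.13 (difference 0.66 ± 0.11, adjusted p = 0.00285). Gpd1, which makes glycerol phosphate, had log2 -0.64 and -0.02, and Hadh, an enzyme of fatty acid oxidation, had log2 -0.24 and 0.08. Lysosomal enzymes were among them as well: Pla2g15, a lysosomal phospholipase (log2 -0.62 and 0.08), Ppt1, a thioesterase (log2 -0.45 and 0.22), and Ctsf, cathepsin F (log2 -0.26 and 0.07). Genes of iron and oxidant handling were Fth1, ferritin heavy chain (log2 -0.20 and 0.07, difference 0.26 ± 0.05, adjusted p = 0.0109), Ncoa4, which delivers ferritin to lysosomes (log2 -0.22 and 0.04), Blvra, biliverdin reductase (log2 -0.25 and 0.13), Gsta1 (log2 -0.36 and -0.01) and Gpx1 (log2 -0.24 and 0.17). Sftpb, which encodes surfactant protein B, had log2 -0.24 and 0.13 (difference 0.37 ± 0.09, adjusted p = 0.0351).

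Of the 31 reversing genes, 29 were lower with silica at 1 day and higher at 6 months. Several are known for roles in macrophages, lysosomes or lipid handling. Tchh at 1 day measured 13.5 to 21.5 CPM (median 18.2) in air and 5.52 to 11.5 CPM (median 6.92) in silica. Tchh at 6 months measured 17.9, 18, 18.1, 18.4 and 21 CPM in the air libraries and 29.8 to 33 CPM (median 30.2) in silica. Tchh, the gene of trichohyalin, a structural protein known from hair follicles, had the smallest p of the whole comparison. All silica values were below air at 1 day and above air at 6 months, and the difference was 1.97 ± 0.19, adjusted p = 4.40e-06. Krt79 at 1 day measured 26.6 to 39.9 CPM (median 31.3) in air and 11 to 20.9 CPM (median 16.2) in silica. Krt79 at 6 months measured 21.3, 23.4, 24.8, 27.6 and 29.2 CPM in the air libraries and 31.1 to 52.9 CPM (median 36.1) in silica. Krt79 encodes a keratin, and its silica values were also apart from air in opposite directions at the times, with a difference of 1.55 ± 0.19, adjusted p = 0.000168.

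Fabp4 encodes a fatty acid binding protein made by alveolar macrophages, endothelium and fat cells. Fabp4 at 1 day measured 14.3 to 23.5 CPM (median 17.2) in air and 7.76 to 12.6 CPM (median 10.2) in silica. Fabp4 at 6 months measured 11.8, 11.8, 13.4, 14 and 20.7 CPM in the air libraries and 21.1 to 54.1 CPM (median 32.6) in silica. Silica and air did not overlap at either time, and the direction turned. The Fabp4 effect was log2 -0.83 ± 0.19 at 1 day and 1.27 ± 0.20 at 6 months, a difference of 2.09 ± 0.27, adjusted p = 0.000286. Some markers of fat tissue were at or near 0 in these lungs, with Plin1 at 0 in 22 of 23 libraries and Adipoq at 0.416 CPM at most. Others were present in every library, Cidec at 0.23 to 2.88 CPM and Cfd at 7.67 to 16.7 CPM. Only 3 of the 8 fat markers could be tested, and all 3 had a positive difference, of which 2 were called. The summed level of the fat markers, 17.3 to 67.7 CPM over all libraries, came mostly from Fabp4 and Cfd. The part of fat tissue in the Fabp4 values was not tested. Pparg, which encodes the nuclear receptor that specifies alveolar macrophages and drives Fabp4 in fat cells, had log2 -0.44 and 0.45 (difference 0.89 ± 0.17, adjusted p = 0.00831). Spic, a transcription factor of iron-recycling macrophages, had log2 -0.64 and 0.53, and Olr1, a scavenger receptor for oxidised lipoprotein, had log2 -0.67 and 0.40.

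Ncf1 encodes the p47 subunit of the NADPH oxidase, the enzyme with which phagocytes make superoxide. Ncf1 at 1 day measured 62.6 to 90.8 CPM (median 74.3) in air and 47 to 59.3 CPM (median 55.8) in silica. Ncf1 at 6 months measured 58.2, 70.3, 71.6, 73.9 and 80.9 CPM in the air libraries and 94.1 to 113 CPM (median 102) in silica. Ncf1 lay below air in every silica library at 1 day, where silica animal 43 was lowest, and above air in every one at 6 months. The difference was 0.99 ± 0.12, adjusted p = 0.000168. Ncf4, which encodes another subunit of the oxidase, was called higher at both times (log2 0.49 and 0.35), and the catalytic subunit Cybb (log2 -0.45 and 0.21) was called lower at 1 day only. Of 9 oxidase subunit genes tested, grouped after the values were seen, 4 were higher and 2 lower at 1 day. At 6 months 6 were higher and 0 lower, and 1 had a higher difference. Over all genes tested, 8.49% were higher and 7.11% lower at 1 day, 10.6% were higher at 6 months, and 1.12% had a higher difference. Ftl1 at 1 day measured 1446 to 1840 CPM (median 1545) in air and 1199 to 1484 CPM (median 1390) in silica. Ftl1 at 6 months measured 1375, 1452, 1527, 1613 and 1667 CPM in the air libraries and 1743 to 2210 CPM (median 2021) in silica. Ftl1, ferritin light chain, which stores iron, overlapped with air at 1 day and was above it in every library at 6 months, with a difference of 0.59 ± 0.09, adjusted p = 0.00172. Pcsk1n, the gene of a secretory granule protein that inhibits a prohormone protease, had log2 -0.56 and 0.74 (difference 1.30 ± 0.15, adjusted p = 0.000119).

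Further reversing genes were lysosomal hydrolases: Ctsd, cathepsin D (log2 -0.40 and 0.50), Acp5, the tartrate-resistant acid phosphatase (log2 -0.46 and 0.70), Naaa, an acid amidase (log2 -0.48 and 0.36), and Man2b2, a mannosidase (log2 -0.21 and 0.32). Lta4h, which makes the neutrophil attractant leukotriene B4, had log2 -0.31 and 0.34 (difference 0.66 ± 0.11, adjusted p = 0.00252). Axl, a receptor with which macrophages engulf dying cells, had log2 -0.32 and 0.25, and Siglec10, an inhibitory sialic acid receptor, had log2 -0.46 and 0.40. Cxcl9, an interferon-induced chemokine that attracts T cells, had log2 -0.37 and 0.37 (difference 0.73 ± 0.16, adjusted p = 0.0154). The other 12 that turned upward were Gckr, Gmpr, Abhd12, Slc26a11, RT1-M2, Xrcc5, Adipor2, Nrcam, Smpdl3a, Cnppd1, Plod3 and LOC100360087, with 1-day effects from -0.71 to -0.11 and 6-month effects from 0.11 to 0.60. The 2 that turned downward were Nhsl2 (log2 0.19 and -0.20) and LOC100362748 (log2 0.47 and -0.48). The Nhsl2 difference of -0.39 (adjusted p = 0.0259) was lost, at adjusted p of 0.0514 to 0.0561, without 1-day air animal 38, 1-day silica animal 47, or 6-month air animal 53 or 54.

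**Figure D2:**
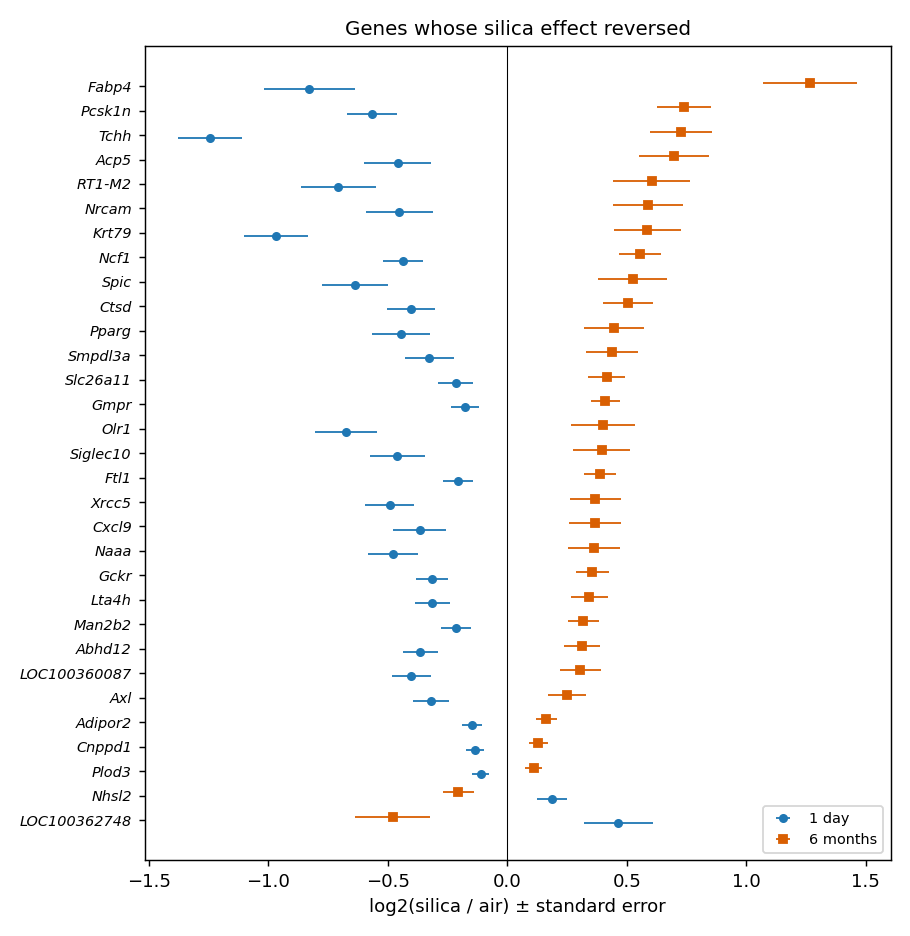
The log2 effects of silica with their standard errors are plotted for the 31 reversing genes, circles for 1 day and squares for 6 months, ordered by the 6-month value. In 29 genes the circle lies below 0 and the square above it, with Fabp4 widest apart at -0.83 and 1.27.

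The growing genes included macrophage and lysosome genes, some with 1-day effects below 0 that were not called. Of the 116, 104 were higher at 6 months, and 4 of those 104 had already been called higher at 1 day. The median 1-day effect of the 104 was log2 -0.04, and 38 of them had the same sign at both times. Ctss encodes cathepsin S, a protease that prepares antigens for MHC class II. Ctss at 1 day measured 100 to 131 CPM (median 107) in air and 82.8 to 105 CPM (median 96.4) in silica. Ctss at 6 months measured 94.8, 106, 108, 109 and 120 CPM in the air libraries and 141 to 187 CPM (median 155) in silica. Silica and air overlapped at 1 day, and at 6 months every silica library lay above every air library. The effect was log2 -0.20 ± 0.07 at 1 day and 0.56 ± 0.08 at 6 months, a difference of 0.76 ± 0.11, adjusted p = 0.000735. The gene C2 encodes a serine protease of the complement cascade. C2 at 1 day measured 136 to 213 CPM (median 160) in air and 116 to 161 CPM (median 134) in silica. C2 at 6 months measured 114, 118, 135, 137 and 162 CPM in the air libraries and 188 to 325 CPM (median 209) in silica. Silica animal 58 stood highest at 6 months, all 6 were above air, and the difference was 1.03 ± 0.18, adjusted p = 0.00456. Bhlhe41 at 1 day measured 28.4 to 49.8 CPM (median 39.6) in air and 28.9 to 43 CPM (median 36.1) in silica. Bhlhe41 at 6 months measured 27.3, 27.6, 31.2, 32 and 36.3 CPM in the air libraries and 46.7 to 61.3 CPM (median 54.7) in silica. Bhlhe41, a transcription factor of alveolar macrophages and of the clock, was apart from air at 6 months only, with a difference of 0.90 ± 0.16, adjusted p = 0.00531.

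Retnla, which encodes the secreted resistin-like alpha of alternatively activated macrophages and epithelium, was among the few already higher at 1 day. Retnla at 1 day measured 8.28 to 19.3 CPM (median 11.5) in air and 21.7 to 32.1 CPM (median 26.9) in silica. Retnla at 6 months measured 4.1, 6.5, 7.53, 9.84 and 17.8 CPM in the air libraries and 42.8 to 210 CPM (median 100) in silica. The groups did not overlap at either time, and the spread within the 6-month silica group was wide. Its effect was log2 1.08 ± 0.35 at 1 day and 3.59 ± 0.39 at 6 months, a difference of 2.51 ± 0.53, adjusted p = 0.0138. The call of the difference was lost in limma-voom. Other growing genes with lysosomal roles were Psap (prosaposin, log2 -0.04 and 0.34), Lgmn (legumain, log2 0.03 and 0.58), Neu1 (neuraminidase, log2 -0.08 and 0.31), Gusb (glucuronidase, log2 -0.05 and 0.32), Glb1 (galactosidase, log2 -0.02 and 0.30), Ctsa (cathepsin A, log2 -0.02 and 0.29) and Npc2 (cholesterol transfer, log2 0.22 and 0.72). Macrophage surface genes were Siglec1 (sialoadhesin, log2 -0.53 and 0.83), Sirpa (log2 -0.09 and 0.35) and the Fc receptor Fcgr2a (log2 0.04 and 0.54). Abcg1, a cholesterol exporter, had log2 -0.27 and 0.46 (difference 0.73 ± 0.13, adjusted p = 0.00531), and Plin2, the coat of lipid droplets, had log2 -0.04 and 0.36. Il18, an inflammasome substrate like Il1b, moved opposite to it (log2 -0.14 and 0.53, difference 0.67 ± 0.16, adjusted p = 0.0276), a call lost in 10 of the 23 fits that left out 1 library (adjusted p up to 0.0673).

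The other growing genes named by rule were Wdr91, which acts in endosome maturation (log2 -0.13 and 0.37), Mms22l, a DNA repair gene (log2 -0.20 and 0.81), Tmtc1 (log2 -0.03 and 0.24) and Fam3c (log2 -0.15 and 0.31). Txn1, thioredoxin, had log2 -0.13 and 0.33 (difference 0.46 ± 0.09, adjusted p = 0.00831), and Col16a1, a minor collagen, log2 0.02 and 0.59 (difference 0.56 ± 0.12, adjusted p = 0.0188). Plaur, the urokinase receptor, had log2 0.29 and 0.95 (difference 0.67 ± 0.16, adjusted p = 0.0359), a call lost in 14 of the 23 fits without 1 library (adjusted p up to 0.0846). The 12 genes that grew downward had a median difference of -0.43, against 0.51 for the 104 that grew upward. Among them Rhd, a blood group gene of red cells, had the widest difference (log2 0.41 and -0.79, difference -1.19) at a group mean of 1.65 CPM or less, and Klhl4 went from log2 0.01 to -0.71. Mtap, an enzyme of methionine salvage, had the smallest p of the 12. Mtap at 1 day measured 54.8 to 61.9 CPM (median 57) in air and 59.2 to 64.3 CPM (median 62.6) in silica. Mtap at 6 months measured 59.7, 60.4, 60.6, 60.8 and 63.9 CPM in the air libraries and 51.3 to 58.6 CPM (median 54) in silica. Mtap was below air in all 6 silica libraries at 6 months, with a difference of -0.27 ± 0.05, adjusted p = 0.00663. Igdcc4 (log2 0.10 and -0.40), Mpdz, a tight junction scaffold (log2 0.02 and -0.34), Radil (log2 0.12 and -0.16) and Strbp (log2 0.12 and -0.17) were also named by rule. LOC691161, passed over because it has no descriptive symbol, had log2 0.15 and -0.47 (difference -0.61, adjusted p = 0.0137). The calls of Radil and Strbp were lost in 8 and 7 of the 23 fits without 1 library (adjusted p up to 0.0592 and 0.0676). The number of growing genes itself depended on single libraries: from 116 it went to 65 without 6-month air animal 53, 73 without 6-month silica animal 58, and 76 without either 6-month silica animal 60 or 1-day air animal 38.

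As a list, the 27 tested genes of lipid-associated macrophages and lysosomes had mostly higher effects at 6 months, with 26 of 27 differences positive. At 1 day 7 were higher and 5 lower, and at 6 months 26 were higher and none lower, Apoe being the exception (log2 -0.35 and -0.04). Over all genes tested, 8.49% were higher and 7.11% lower at 1 day, and 10.6% higher at 6 months. The difference was called higher for 10 and lower for none, beside 1.12% and 0.253% of all genes tested. The list was chosen with earlier results of these data known, so this contrast is a description and not support for a shift. The median effect went from -0.03 to 0.58. These 10 were Fabp4, Ctsd, Acp5, Olr1, Ctss, Lgmn, Abcg1, Siglec1, Plin2 and Cd63, of which the first 4 reversed and the others grew. Another 7 persisted, with Mmp12, the macrophage elastase, at log2 1.31 and 2.23, and Atp6v0d2, a proton pump subunit, at log2 1.1 and 1.4. Without each library in turn, the number of higher differences ran from 9 to 14 and that of genes higher at 6 months from 24 to 26.

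**Figure D3:**
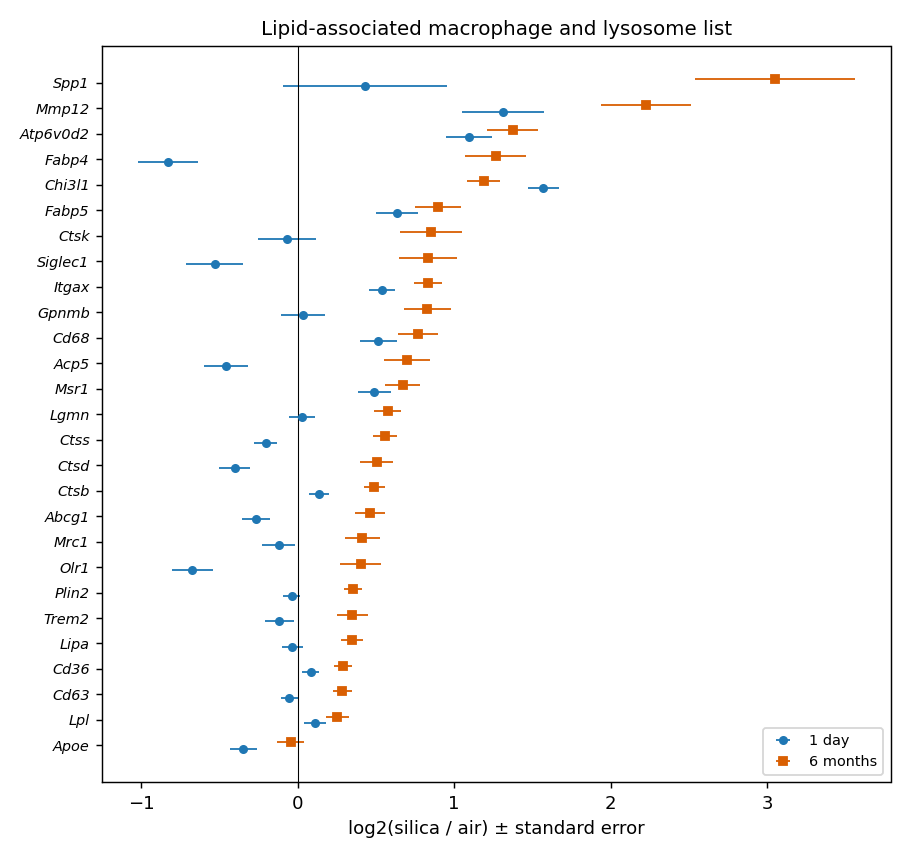
The log2 effects of silica with their standard errors are plotted for the 27 tested genes of the lipid-associated macrophage and lysosome list, circles for 1 day and squares for 6 months. At 6 months 26 squares lie above 0 with a call, while at 1 day the circles spread from Fabp4 at -0.83 to Chi3l1 at 1.57.

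Spp1, which encodes osteopontin and belongs to this list, had a 6-month rise whose excess over 1 day did not pass. Spp1 at 1 day measured 4.49 to 14.4 CPM (median 5.66) in air and 8.37 to 10.3 CPM (median 9.37) in silica. Spp1 at 6 months measured 1.29, 4.34, 5.18, 5.48 and 30.3 CPM in the air libraries and 24.5 to 139 CPM (median 80.3) in silica. At 6 months a single air library, animal 54 at 30.3 CPM, reached into the silica range. At 1 day every silica value lay above 5 of the 6 air values and below that of air animal 38, at 14.4 CPM. The Spp1 effect was log2 0.43 ± 0.52 at 1 day and 3.05 ± 0.51 at 6 months, a difference of 2.62 ± 0.73, adjusted p = 0.0763. Without air animal 54 the difference was 3.80 (adjusted p = 0.00233), without 6-month silica animal 64 it was 2.80 (adjusted p = 0.0352), and with DESeq2 it was 2.61 (adjusted p = 0.0359), all 3 past the threshold. Families formed by gene symbol after these values were seen are given as description. Of 12 cathepsins tested, 2 were higher and 2 lower at 1 day, 8 were higher and none lower at 6 months, and 4 had a higher difference. Of 20 proton pump subunits, 4 were higher and 1 lower at 1 day, and 15 were higher at 6 months, with 1 higher difference. Among 18 lysosomal glycosidases, 1 was higher and 2 lower at 1 day, and 12 were higher at 6 months, with 4 higher differences. Over all genes tested, 8.49% were higher and 7.11% lower at 1 day, 10.6% were higher at 6 months, and 1.12% had a higher difference.

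Surfactant and alveolar type 2 genes are expressed by the epithelial cell that makes surfactant. Of 18 tested, 4 were higher and 1 lower at 1 day, 14 were higher and none lower at 6 months, and all 18 had a positive difference, of which 5 were called. The shares over all genes tested were 8.49% higher and 7.11% lower at 1 day, 10.6% higher at 6 months and 1.12% with a higher difference. These members too were chosen with earlier results of the data known, so the counts are a description. The median effect went from 0.11 to 0.39. Sftpc at 1 day measured 8660 to 10430 CPM (median 8755) in air and 8383 to 10140 CPM (median 9682) in silica. Sftpc at 6 months measured 8052, 8503, 8915, 9370 and 10020 CPM in the air libraries and 11040 to 12460 CPM (median 11650) in silica. Sftpc, surfactant protein C, overlapped with air at 1 day and was above it in all 6 silica libraries at 6 months. Its difference was 0.32 ± 0.08, adjusted p = 0.0378, and that call was lost in 15 of the 23 fits without 1 library (adjusted p up to 0.0895). Pla2g1b, a secreted phospholipase (log2 0.07 and 0.57, difference 0.51 ± 0.10, adjusted p = 0.0109), Lpcat1, which makes the lipid of surfactant (log2 0.15 and 0.63, difference 0.48 ± 0.11, adjusted p = 0.0213), and Cebpa, a transcription factor of type 2 cells and macrophages (log2 -0.11 and 0.41, difference 0.52 ± 0.10, adjusted p = 0.00909), were the other growing members, and Sftpb was the fading one. Sftpa1 had log2 0.32 and 0.61 and Sftpd log2 0.13 and 0.64, with differences that did not pass. The number of called differences ran from 2 to 7 when each library was left out, the lowest without 6-month air animal 53. It moved by over 1.5 times without 1-day air animals 38 and 39, 1-day silica animals 43, 44, 47 and 48, 6-month air animals 49 and 53, and 6-month silica animals 58, 59, 60 and 62.

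Among persisting genes, inflammatory secreted proteins and proliferation genes are described here. Ccl2 encodes the chemokine that attracts monocytes. Ccl2 at 1 day measured 2.63 to 5.72 CPM (median 4.87) in air and 19.8 to 33.1 CPM (median 28.2) in silica. Ccl2 at 6 months measured 3.72, 4.61, 5.63, 5.74 and 5.77 CPM in the air libraries and 17.8 to 62 CPM (median 30.1) in silica. No silica value overlapped air at either time. The effect was log2 2.59 ± 0.25 at 1 day and 2.69 ± 0.27 at 6 months, and the difference of 0.10 ± 0.37, adjusted p = 0.943 had a 95% interval of -0.67 to 0.86, which leaves room for change in either direction. Slc26a4 at 1 day measured 5.59 to 20.2 CPM (median 9.66) in air and 39.7 to 65.5 CPM (median 60.4) in silica. Slc26a4 at 6 months measured 4.86, 10.1, 11.5, 12.5 and 17.1 CPM in the air libraries and 56.4 to 162 CPM (median 90.1) in silica. Slc26a4 encodes pendrin, an anion exchanger of airway epithelium, and its groups were apart at both times with a difference of 0.67 ± 0.43, adjusted p = 0.529. Sod2 at 1 day measured 129 to 179 CPM (median 152) in air and 326 to 460 CPM (median 407) in silica. Sod2 at 6 months measured 151, 167, 172, 174 and 178 CPM in the air libraries and 294 to 419 CPM (median 335) in silica. Sod2, the mitochondrial superoxide dismutase, was apart as well, and its effect was log2 1.4 ± 0.08 at 1 day and 1.04 ± 0.09 at 6 months. Haptoglobin, Hp (log2 1.01 and 0.98), the chitinase-like Chi3l1 (log2 1.57 and 1.19), complement C3 (log2 1.68 and 1.19) and Dgat2, which makes triglyceride (log2 0.65 and 0.60), were the other raised genes with the strongest calls at both times. For 537 of the 753 persistently higher genes the 95% interval of the difference lay within 1.5-fold in either direction, and for the others a change of that size lay inside the interval.

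Genes of cell division were mostly called higher at 1 day, and at 6 months 20 of 22 mitosis genes and 13 of 22 DNA replication genes were. Mki67 at 1 day measured 12.9 to 21.7 CPM (median 18.3) in air and 39.8 to 53.7 CPM (median 48.8) in silica. Mki67 at 6 months measured 17.1, 19.2, 19.7, 21.5 and 24.6 CPM in the air libraries and 30.4 to 44.4 CPM (median 34.3) in silica. Mki67, a marker of cycling cells, was higher in every silica library at both times, with log2 1.4 ± 0.11 at 1 day and 0.80 ± 0.12 at 6 months. The Mki67 difference of -0.58 ± 0.16, adjusted p = 0.0766 did not pass, but did without 6-month silica animal 58 (-0.65, adjusted p = 0.0395) and with DESeq2 (-0.58, adjusted p = 0.0208). Of 22 mitosis genes, 21 were higher at 1 day and 20 at 6 months (8.49% and 10.6% of all genes tested were), none was lower, and edgeR called no difference, beside 9 at an unadjusted p below 0.05, 2 by DESeq2 and 0 by limma-voom. Leaving out 1-day air animal 38, 6-month air animal 52 or 6-month silica animal 58 gave 1 called difference. The list's median effect went from 1.12 to 0.81, and 19 of the 22 differences were negative. Of 22 DNA replication genes, 21 were higher at 1 day and 13 at 6 months, with medians of 0.65 and 0.37. Among those, 7 were called at 1 day only with no called difference. Tyms, thymidylate synthase, had the called difference (-0.55 ± 0.14, adjusted p = 0.0417), which was lost in 16 of the 23 fits without 1 library (adjusted p up to 0.0993). Rrm2, a subunit of ribonucleotide reductase, had log2 1.29 and 1.22. Within 250 bases before and 50 after the start, the letters TTTGAA, the core of the cell cycle homology region, occurred on either strand in 12 of 18 mitosis genes with a promoter in the table (66.7%), 20.1% of persisting raised genes and 12.6% of tested genes. CCAAT occurred in 83.3% of the mitosis genes and in 38.6% of tested genes. It was above the share of tested genes in every list scanned, at 62.5% of DNA replication genes and 63.2% of lipid-associated macrophage and lysosome genes. The other lists scanned had 50% to 57.1%.

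Dlk1 was among the persistently lower genes named by rule. Dlk1 at 1 day measured 7.36 to 26.4 CPM (median 13.8) in air and 2.69 to 3.65 CPM (median 3.12) in silica. Dlk1 at 6 months measured 15.9, 25.3, 26.8, 31.5 and 46.9 CPM in the air libraries and 2.78 to 11.8 CPM (median 3.82) in silica. Dlk1, which encodes a Notch-related ligand of progenitor cells, lay below air in every silica library at both times. The effect was log2 -2.27 ± 0.36 at 1 day and -2.50 ± 0.35 at 6 months, with a difference of -0.22 ± 0.50, adjusted p = 0.889. The other 4 genes with the smallest p at both times were Mettl7a (log2 -0.30 and -0.32), the cytochrome Cyp4b1 (log2 -0.55 and -0.34), Ndrg2 (log2 -0.35 and -0.36) and Sparcl1, a matrix protein of vessels (log2 -0.28 and -0.22). For 446 of the 456 the 95% interval of the difference lay within 1.5-fold. Of 16 endothelial genes, 6 were lower at 1 day and 14 at 6 months, none was higher at either time, and 14 of 16 differences were negative. Of all genes tested 7.11% were lower at 1 day and 8.41% at 6 months. No endothelial difference was called by edgeR, DESeq2 or limma-voom, and 4 had an unadjusted p below 0.05. Eng, endoglin, had log2 -0.10 and -0.35, and Pecam1 log2 -0.20 and -0.26. Without 1-day silica animal 46 the number lower at 1 day was 4. Alveolar type 1 genes were lower in 8 of 13 at 1 day and 6 of 13 at 6 months, and edgeR, DESeq2 and limma-voom called 0 of their differences, with 0 at an unadjusted p below 0.05.

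**Figure D4:**
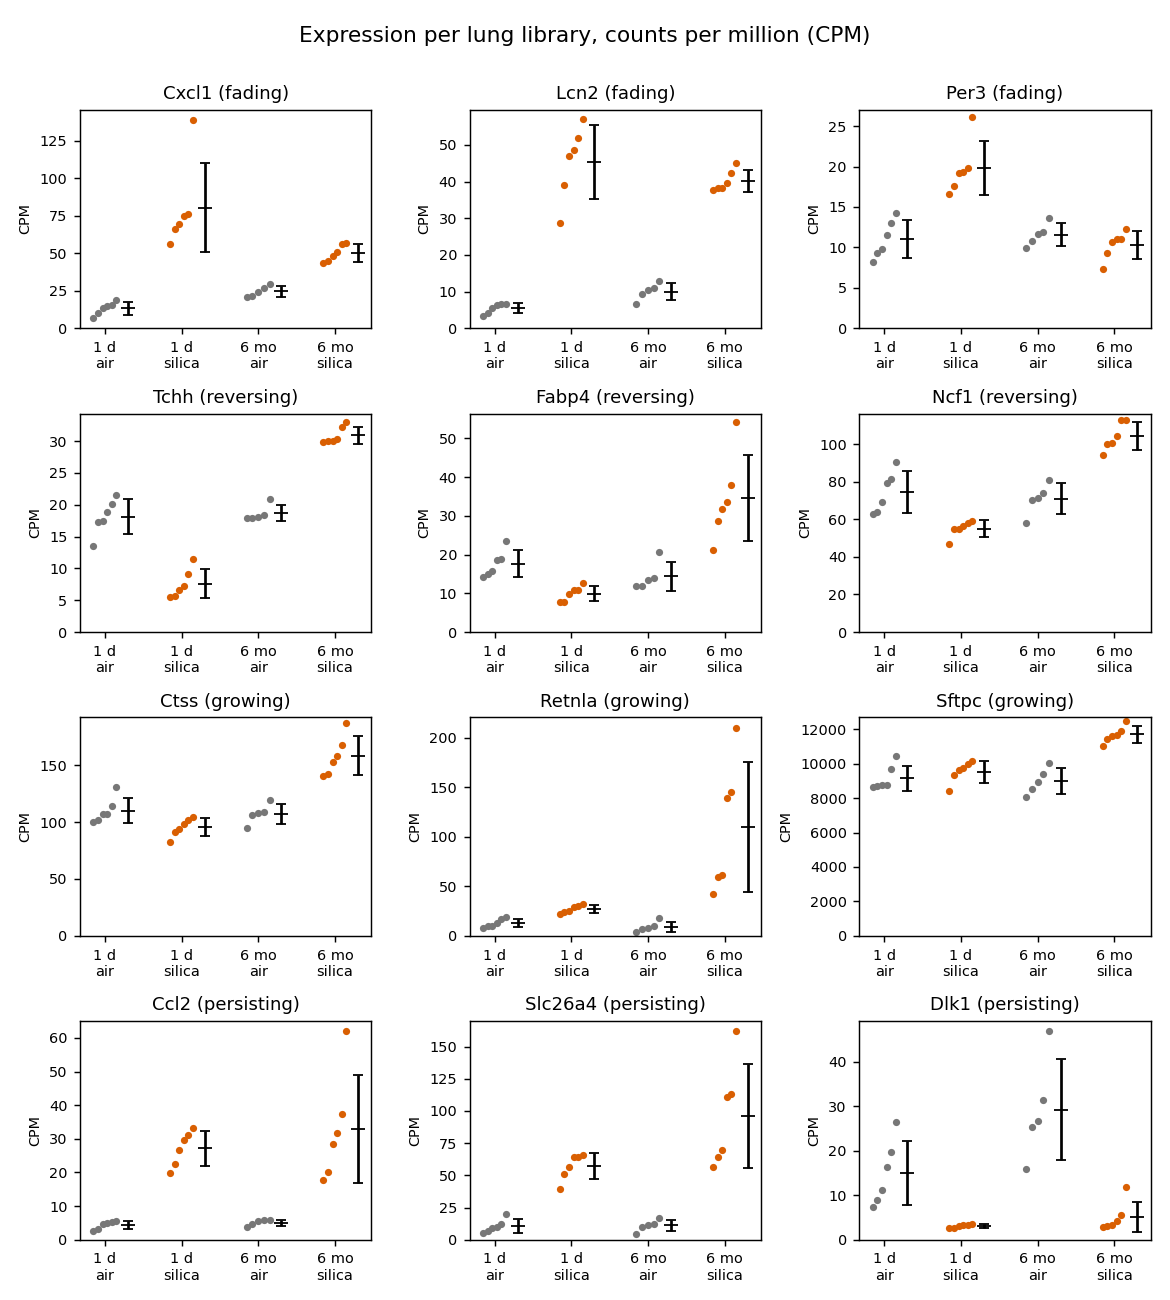
CPM in each lung library are plotted for 12 genes in 4 groups, grey for air and orange for silica, with the mean and standard deviation beside the points (6 libraries a group, 5 in 6-month air). The fading genes are high in 1-day silica, the reversing genes drop below air at 1 day and rise above it at 6 months, the growing genes are highest in 6-month silica, and Ccl2, Slc26a4 and Dlk1 are apart from air at both times.

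The lists that follow had from 0 to 3 called differences. With 1.4% of all genes tested called, 0 calls in a list of 12 to 24 genes is near the share over all genes, and the lists with 1 to 3 calls are above it. For the single times, 8.49% of all genes tested were higher and 7.11% lower at 1 day. At 6 months 10.6% were higher and 8.41% lower. Of 17 collagen genes, 3 were lower at 1 day, 1 was higher at 6 months and 1 had a called difference, Col16a1, while Col1a1 had log2 -0.02 and 0.09. The 1 collagen gene higher at 6 months was not above the share over all genes. Of 19 complement genes, 10 were higher at 1 day and 12 at 6 months, and 3 had a higher difference, C2, Cfi (log2 0.66 and 2.14) and the faded Cfd (log2 -0.71 and -0.07, a call lost without 1-day air animal 38, 1-day silica animal 43 or 6-month silica animal 59, at adjusted p of 0.0513 to 0.0528). MHC class II genes were higher in 3 of 13 at 1 day and 8 of 13 at 6 months, with Cd83 the called difference (0.50 ± 0.13, adjusted p = 0.0457, lost in 19 of the 23 fits without 1 library). No difference was called by edgeR among 24 interferon-stimulated genes (4 at an unadjusted p below 0.05, none by DESeq2 or limma-voom). The same held for 18 T cell genes (2 unadjusted, none by the other tools) and 12 NK and cytotoxic genes (0 unadjusted, none by the other tools). Of the 12 NK and cytotoxic genes, 0 were called at 1 day, and 5 were lower and 0 higher at 6 months. Of the 18 T cell genes, 1 was lower at 1 day, and 3 were higher and 3 lower at 6 months. For 17 cilia genes and 17 airway secretory genes edgeR and limma-voom called none and DESeq2 called 1 each, with 3 each unadjusted. Of the airway secretory genes, 3 were higher and 2 lower at 1 day, and 6 were higher and 1 lower at 6 months. Of 15 fibroblast and smooth muscle genes, 1 was higher and 2 lower at 1 day, and 6 were lower and 0 higher at 6 months. Among these 15, edgeR, DESeq2 and limma-voom called 0 differences, with 1 unadjusted. For 22 matrix protein genes edgeR and limma-voom called none and DESeq2 called 2, with 6 unadjusted. Hmox1, heme oxygenase, was higher at both times (log2 0.53 and 1.06, difference 0.53 ± 0.16, adjusted p = 0.108), and its difference passed with DESeq2 (0.52, adjusted p = 0.0442) and without 6-month silica animal 64 (0.59, adjusted p = 0.0452). Scgb1a1, the club cell secretoglobin, had log2 -0.38 and -0.20 and a difference of 0.18 ± 0.15, adjusted p = 0.642. Heart and muscle markers, which come with tissue taken beside the lung, summed to between 16.3 and 513 CPM, highest in 6-month air animal 49. Of their 10 tested genes 1 was called, higher at 1 day, which is near the share over all genes.

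**Figure D5:**
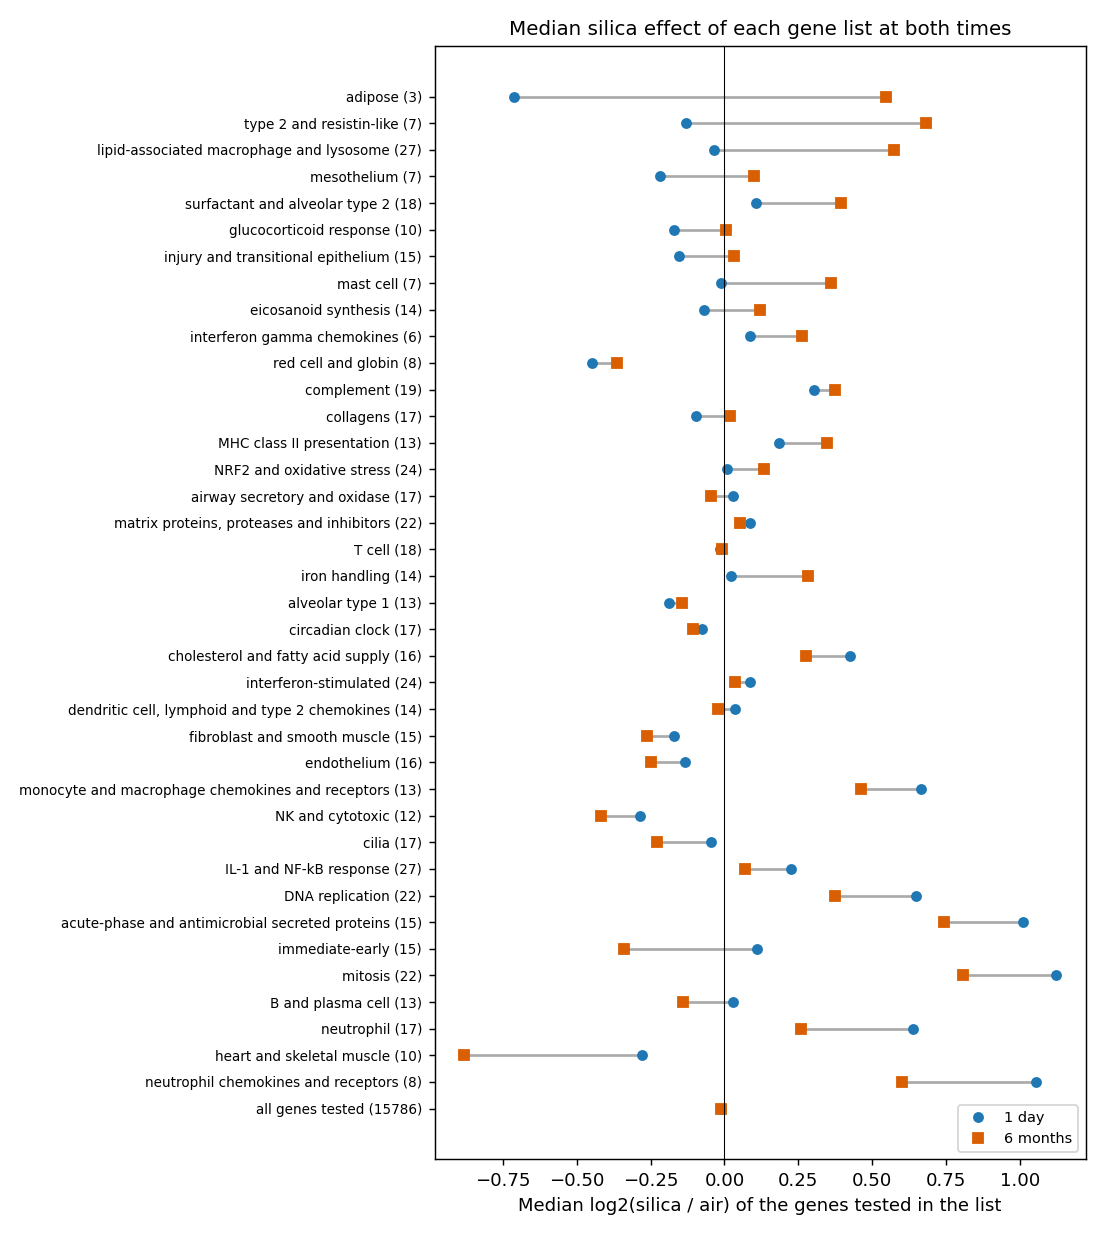
The median log2 effect of silica over the tested genes of each of the 38 lists, with the number tested in brackets, is plotted for 1 day (circle) and 6 months (square), ordered by the median difference. The lipid-associated macrophage and lysosome list went from -0.03 to 0.58 and the neutrophil chemokine list from 1.05 to 0.60, while all genes stayed at -0.01.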

How the data were processed

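Lung messenger RNA of 23 rats was sequenced with stranded libraries, per the labels' protocols. The deposited values are estimated counts per gene, made with Salmon 1.10.1 after STAR 2.6.1d on Rnor_6.0, following bcl2fastq 2.19, cutadapt 3.4 and Trim Galore 0.6.7, per the submitters' processing notes, which give these names without their order. Both lung tables were joined on gene ID, counts were rounded to whole numbers, and groups came from the treatment labels. Genes were kept by edgeR's filterByExpr with a minimum count of 10. One model with a mean for each of 4 groups was fitted with edgeR 4.0.16 (TMM scaling, quasi-likelihood F test, R 4.3.3), with contrasts for each time and for their difference, and p-values were Benjamini-Hochberg adjusted over all 15786 genes. CPM of single genes use TMM-scaled totals, except those of the fat markers Adipoq, Cidec and Cfd. Summed marker levels and the Adipoq, Cidec and Cfd values are CPM over unscaled library totals. Counts per library of 12050000 to 25880000 limit the precision of low genes. P-values measure the spread between these libraries, which carry separate animal numbers in their titles; chambers are not given. Replicates differed by more than sampling noise. Genes named were, in each pattern and direction, the 5 with the smallest p of the difference (for persisting genes the smallest larger p of the times), 2 from each of 38 lists by the same p, and 11 chosen genes, all at 5 CPM or more in a group. Placeholder symbols (LOC or RGD with a number) were passed over, which the rule as first written did not say and which set aside LOC691161 and LOC100362748, both given in the text. Other genes were named after their values were seen. Members and lists were chosen with earlier results of these data known. Of 626 listed names, 11 were not found, 5 matched by an older symbol and 557 distinct genes were tested. Promoters are RefSeq sequences matched by symbol. Alternatives were RLE and upper-quartile factors, TMM within each table, a minimum count of 50, no filter, DESeq2 1.42.0, limma-voom (limma 3.58.1), robust dispersion, summed gene models, an adjusted p of 0.01, a test against a 1.5-fold change, each table alone, and leaving out each library.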

Additional observations from a re-analysis of the deposited data

Results flagged for a closer look

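The silica effect differed between 6 months and 1 day for 217 genes, by the edgeR test of the difference itself. Of the genes named by rule, 51 were among them, and their log2 differences (6-month effect minus 1-day effect) follow by pattern. Genes raised at 1 day and fading had differences of Cp -0.336, Cx3cl1 -0.532, Cxcl1 -1.55, Cxcl2 -1.90, Fcrla -0.685, Il1b -1.05, Lcn2 -1.03, Nr1d2 -1.06, Per3 -1.01, Tyms -0.553 and Usp36 -0.308. Genes lowered at 1 day and fading had Abca1 0.66, Alox15 0.753, Cfd 0.637, Clec7a 0.863, Fcgrt 0.503, Fth1 0.264, Gpd1 0.624, Gsta1 0.347, Hadh 0.329 and Tnfrsf8 1.66. Genes that grew upward had Bhlhe41 0.901, C2 1.03, Cd83 0.501, Cebpa 0.519, Col16a1 0.564, Ctss 0.76, Fam3c 0.466, Il18 0.666, Mms22l 1.01, Pla2g1b 0.507, Plaur 0.666, Retnla 2.51, Sftpc 0.324, Tmtc1 0.274, Txn1 0.465 and Wdr91 0.496. Genes that grew downward had Igdcc4 -0.495, Mpdz -0.36, Mtap -0.274, Radil -0.277 and Strbp -0.291. Genes that turned from lower to higher had Cxcl9 0.734, Fabp4 2.09, Ftl1 0.593, Krt79 1.55, Lta4h 0.656, Ncf1 0.991, Pcsk1n 1.30 and Tchh 1.97, and from higher to lower Nhsl2 -0.392.

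Dixon's test for a sample far from the others of its group was applied to 116 groups of 5 or 6 libraries, 27 genes and 2 library measures in each of 4 groups, and marked 13. Chance marks about 1 in 20 such groups. At 1 day, silica animal 44 had the highest Cxcl1 (139 CPM), silica animal 48 the highest Per3 (26.1 CPM), silica animal 43 the lowest Ncf1 (47 CPM) and air animal 38 the highest Spp1 (14.4 CPM). Air animal 42 of 1 day had the largest total, at 25875975 counts. At 6 months, air animal 54 stood highest for Spp1 (30.3 CPM), Tchh (21 CPM), Fabp4 (20.7 CPM) and Mtap (63.9 CPM), and air animal 53 lowest for Cxcl6 (3.42 CPM). Silica animal 58 of 6 months stood highest for Tnfrsf8 (21.6 CPM) and C2 (325 CPM), and silica animal 59 highest for Dlk1 (11.8 CPM). The Tchh, Fabp4 and Mtap values of air animal 54 still lay on the air side of every silica library of 6 months.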

How the results depend on the processing

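Among 120 values of genes named by rule, 71 were called, and none of the 120 changed direction with a call under any alternative run. Of the 71, 59 kept their call in each of the 23 fits that left out 1 library. Apart from the 1.5-fold test, 56 of them kept it in every other fit of all 4 groups at the 0.05 threshold. The stricter threshold of 0.01 and the tables fitted alone were not part of these counts. Beside the losses given with the genes, Fcrla was not called in 14 leave-one-out fits (adjusted p up to 0.0923) or with limma-voom. Cd83, Tyms, Plaur, Retnla and Lcn2 were also not called with limma-voom, nor Radil with DESeq2. With no filter, Cd83, Fcrla, Plaur, Radil, Sftpc and Tyms were not called (adjusted p 0.0544 to 0.137), nor was Cd83 with RLE factors (0.052) or with TMM within each table (0.0536). DESeq2 gave 351 genes with a called difference, 264 higher and 87 lower, sharing 214 of the 217, with 126 fading and 179 growing. At an adjusted p below 0.01 there were 70 differences, 1348 genes called at 1 day, 1619 at 6 months, 638 persisting, 29 fading, 30 growing and 10 reversing. Against a 1.5-fold change there were 5 differences, 166 genes at 1 day, 81 at 6 months, 47 persisting, 2 fading, 1 growing and 0 reversing. Without libraries 38 and 58, differences numbered 126, fading genes 45, growing genes 61 and reversing genes 20, and 13 of the 71 calls were lost: Col16a1 (0.46, adjusted p = 0.0634), Il1b (-1.02, adjusted p = 0.053), Cd83, Cfd, Cp, Fcrla, Il18, Nhsl2, Plaur, Radil, Sftpc, Strbp and Tyms (adjusted p up to 0.122). Leaving out each library in turn, differences ran from 149 to 254, genes at 1 day from 1979 to 2545, genes at 6 months from 2236 to 3177, persisting from 1018 to 1218, fading from 46 to 86, growing from 65 to 145 and reversing from 22 to 36. The list counts without single libraries and the fit without both libraries were added after seeing the data. Other scalings, filters, a robust dispersion, summed gene models and tables fitted alone kept every count over all genes within 1.5 times. With no filter the difference counted 148 higher and 29 lower. No paired analysis was possible because the 4 lung groups share no animal numbers. Depth limits low genes most.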
